A study of Mus musculus with 2 samples.

Results

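Complement proteases and the cell-surface proteins that restrain complement were examined as a group of 9 genes in M210B4, an established mouse bone marrow stromal cell line, after exposure to an antibody that activates CD84. The genes were chosen by symbol: C1ra, C1s1, Serping1, C3, Cfb, Cd55, Cr1l, Cd46 and Cd59a. They were taken from the 22180 genes that have a probe set with exactly 1 symbol in the platform annotation, and a gene with several such probe sets was represented by the brightest. A value was obtained for 8 of the 9, while C3 had no single-symbol probe set and was not analysed here. The choice was made with results of these arrays known, Cd59a and C1s1 being among the genes with the highest differences, so the values below describe the genes and are not tests of them.

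Both cultures were M210B4 cells with no engineered change given in the labels, kept for 24 h in RPMI medium with 2% serum, and RNA from each was hybridised to 1 Affymetrix Mouse Gene 2.0 ST array. The treated culture received the CD84-activating antibody and the control culture an IgG1 isotype antibody. CD84 is a receptor of the SLAM family that binds to itself on neighbouring cells. With 1 array per treatment the data give no error between replicates and allow no test, and every difference below is that between 2 arrays of a single line.

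Complement is a cascade of plasma proteins that tags surfaces for uptake by phagocytes and can open pores in membranes. In the classical pathway C1q binds to antibody on a surface and activates the protease C1r, which activates the protease C1s. C1s then cleaves C4 and C2 to form an enzyme that splits C3. Factor B supplies the protease of the alternative pathway, and both routes can end in the membrane attack complex. Cells protect themselves with surface regulators: CD55 and Crry act on the enzymes that split C3 and C5, CD46 is a cofactor for the inactivation of C3b, and CD59 stops the last step of pore assembly. Stromal fibroblasts are among the cells outside the liver that make C1r, C1s and the C1 inhibitor.

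The sequences just upstream of 4 genes are shown because Cd59a, C1s1 and Cd55 had the highest differences of the group and C1ra, the neighbour and partner of C1s1, did not share its direction. They are the 250 bases before the annotated start, read 5′ to 3′ on the strand of the gene, from RefSeq (GRCm38.p6). Capitals mark matches to the core of the interferon-stimulated response element (GAAA, any 2 bases, then GAAA) or to a GC box (GGGCGG), searched on both strands together with the gamma-activated site (TTCNNNGAA) and a TATA box (TATAAA).
Cd59a, chr2:104095551-104095800, plus strand: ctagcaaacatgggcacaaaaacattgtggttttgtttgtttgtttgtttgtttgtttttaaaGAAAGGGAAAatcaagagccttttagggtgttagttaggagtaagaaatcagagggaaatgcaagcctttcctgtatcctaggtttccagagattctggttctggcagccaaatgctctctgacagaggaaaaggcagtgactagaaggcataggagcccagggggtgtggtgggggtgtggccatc
C1s1, chr6:124542360-124542609, minus strand: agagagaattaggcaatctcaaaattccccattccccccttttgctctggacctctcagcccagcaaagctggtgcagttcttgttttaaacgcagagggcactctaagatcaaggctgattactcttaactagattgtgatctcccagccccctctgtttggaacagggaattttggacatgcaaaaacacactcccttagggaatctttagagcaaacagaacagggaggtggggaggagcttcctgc
C1ra, chr6:124512371-124512620, plus strand: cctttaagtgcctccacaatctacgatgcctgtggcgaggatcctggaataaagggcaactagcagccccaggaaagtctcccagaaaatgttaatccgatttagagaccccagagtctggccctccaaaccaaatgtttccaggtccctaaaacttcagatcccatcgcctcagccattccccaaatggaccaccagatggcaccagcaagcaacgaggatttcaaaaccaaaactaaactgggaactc
Cd55, chr1:130462745-130462994, minus strand: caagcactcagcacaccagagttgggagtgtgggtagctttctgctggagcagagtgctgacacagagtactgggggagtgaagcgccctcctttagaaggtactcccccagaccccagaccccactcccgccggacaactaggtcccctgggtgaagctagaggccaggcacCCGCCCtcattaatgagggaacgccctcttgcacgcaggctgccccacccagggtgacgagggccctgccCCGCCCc

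The Cd59a window held 1 match to the interferon-stimulated core, GAAAGGGAAA, lying 178 to 187 bases before the start, and 2.98% of all 32851 windows of this length held such a match. The Cd55 window held 2 matches to the GC box on the opposite strand, a motif found in 32.7% of windows, and 64.0% of its bases were G or C against 44.8% for Cd59a. The C1s1 and C1ra windows held no match to any of the 4 motifs. The gamma-activated site, present in 7.02% of all windows, and the TATA box, present in 12.4%, were found in none of the 8 windows of the 7 genes that the RefSeq table lists, in which C1s1 has 2 starts and the one farther upstream is shown. A match describes letters only, and nothing on these arrays measured binding.

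Of the 8 genes with a value, 6 were detected, meaning above a log2 level of 4.84 on at least 1 array. That level is the 95th percentile of 1390 olfactory and vomeronasal receptor genes, which marrow stroma has no known use for. At least 1.5-fold higher after anti-CD84 were 3 of the 6 (Cd59a, C1s1 and Cd55), against 10.7% of the 13282 genes detected on the arrays. None of the 6 was 1.5-fold lower, against 6.4% of all detected genes, and C1ra, Cr1l and Cd46 lay within 1.5-fold. C1s1 was detected only through the anti-CD84 array, where it was high, so its place in this count follows in part from the filter. Of the 5 genes above the level on both arrays, 2 were 1.5-fold higher and 0 lower, against 9.57% and 3.89% of the 11759 genes measured in that way. With differences centred on the median of all detected genes, 0.09 on the log2 scale, the shares over all genes were 7.7% higher and 8.49% lower, and Cd55 no longer reached 1.5-fold. With values as measured, Cd59a and C1s1 differed by 2-fold or more, against 1.98% of detected genes higher by that much, but counted from the detection level C1s1 did not reach 2-fold.

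**Figure D1:**
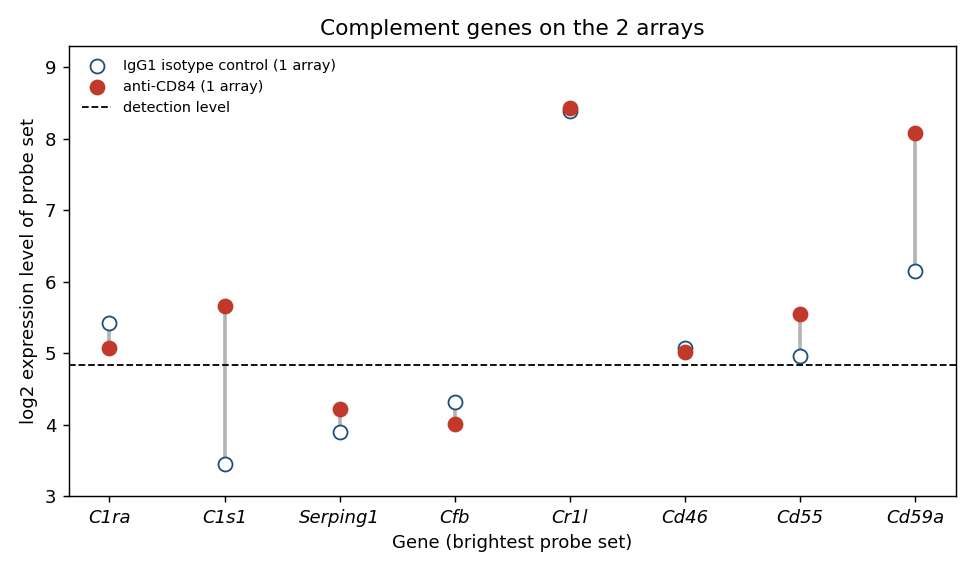
log2 expression level (vertical axis) of the brightest probe set of each of the 8 measured genes, with the IgG1 array as open points, the anti-CD84 array as filled points and the detection level of 4.84 dashed. Cd59a is well above the dashed line on both arrays and 1.93 higher after anti-CD84, C1s1 crosses the line, and Serping1 and Cfb stay below it on both.

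Among the proteases, the differences of C1s1 and C1ra had opposite signs, and 1 array per treatment cannot show whether the genes responded differently. C1s1 encodes C1s, the protease of the C1 complex that cleaves C4 and C2. Its brightest probe set read 5.67 on the log2 scale after anti-CD84 and 3.45 after IgG1, a difference of 2.22. The control value was below the detection level, so C1s1 was at least 1.78-fold higher when counted from that level. Of the other 1474 detected genes with a mean level under 5, 1 differed by as much in either direction, and it was lower. At the mean level of C1s1, 4.56, a gene is detected only if its 2 arrays differ. C1s1 was also chosen with its difference known, so this rank describes it and lends it no support. A second C1s1 probe set did not pass the level on either array (3.85 and 3.49, a difference of 0.36), and the mean of both probe sets was also below it on both, at 4.76 and 3.47. The higher C1s1 value therefore rests on 1 probe set of 1 array.

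C1ra encodes C1r, the protease that activates C1s. It was above the detection level on both arrays, at 5.08 after anti-CD84 and 5.42 after IgG1, which is 1.26-fold lower after anti-CD84. A difference of this size or larger, in either direction, was seen in 44.4% of the other 5056 detected genes with a mean level between 5 and 7. Serping1 encodes the C1 inhibitor, a serpin that inactivates C1r and C1s. On neither array did it pass the detection level, with values of 4.22 and 3.89, and it has no fold. Cfb, which encodes factor B, was likewise below it on both, at 4.02 after anti-CD84 and 4.32 after IgG1.

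C1ra and C1s1 lie in a run of 5 protein-coding genes on chromosome 6, in the order C1rl, C1ra, C1s1, C1rb and C1s2. C1rl, a C1r-like protease gene, was 1.54-fold higher after anti-CD84 (8.25 against 7.63), a call lost when differences were centred. C1rb, the close copy of C1ra, was 1.73-fold higher (5.67 against 4.88), its control value being just above the detection level. C1s2, the close copy of C1s1, was below the level on both arrays, at 3.62 and 3.81. The run thus held 3 genes that were 1.5-fold higher, 1 that was lower by less than 1.5-fold and 1 that was not detected. Of all detected genes, 10.7% were 1.5-fold higher. C1s1 is counted here on 1 probe set that was above the detection level only after anti-CD84. Probes of such similar pairs can share signal, and the extent of this was not tested.

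Cd59a differed most of the 4 membrane regulators. It encodes the mouse CD59 that is widespread in tissues, a small protein held in the membrane by a glycosylphosphatidylinositol (GPI) anchor that blocks the insertion of C9 into the attack complex. Its level was 8.08 after anti-CD84 and 6.15 after IgG1, both above the detection level, and the difference of 1.93 made it 3.81-fold higher. Of the other 4541 detected genes with a mean level between 7 and 9, whose differences had a standard deviation of 0.37, 2 differed by as much in either direction and 0 in the same direction. The mean level of Cd59a, 7.12, lay near the bottom of that range, and between 5 and 7 the standard deviation was 0.48. Like C1s1, Cd59a was chosen with its difference known, so this rank describes it and lends it no support. Centring, quantile normalization and loess gave differences between 1.81 and 1.84. Cd59b, the adjacent copy known mainly from testis, read 3.31 and 3.78 and did not pass the detection level on either array.

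**Figure D2:**
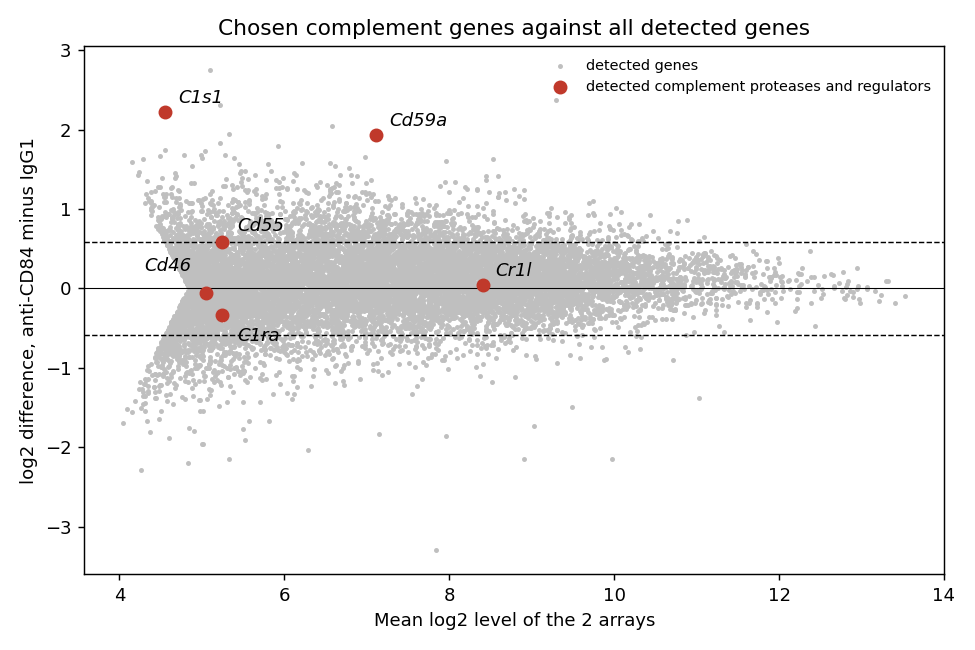
log2 difference, anti-CD84 minus IgG1 (vertical axis), against the mean log2 level of both arrays (horizontal axis) for the 13282 detected genes, 1 grey point per gene, with the 6 detected complement genes in red and dashed lines at 1.5-fold. Cd59a and C1s1 stand at the upper edge of the cloud at their level, Cd55 lies on the upper dashed line, and Cr1l, Cd46 and C1ra lie between the lines.

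The 3 regulators that act earlier in the cascade differed less than Cd59a. Cd55 encodes decay-accelerating factor, which takes apart the enzymes that split C3 and C5 and, like Cd59a, is GPI-anchored. It read 5.55 after anti-CD84 and 4.96 after IgG1, both above the detection level, and was just past 1.5-fold higher after anti-CD84. A difference this large in either direction was found in 20.6% of the other 5056 detected genes between 5 and 7. Its difference of 0.59 became 0.50 when differences were centred and 0.57 after quantile normalization, both short of 1.5-fold. Its neighbour Cd55b, a copy known mainly from testis, was below the detection level at 3.73 and 3.44.

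Cr1l encodes Crry, the broadly expressed mouse regulator that combines the activities of CD55 and CD46. Its level was 8.43 after anti-CD84 and 8.39 after IgG1. The difference of 0.04 turned to -0.04 when centred, -0.04 after quantile normalization and -0.08 with the loess curve removed, so it has no settled sign. Cd46, which in the mouse is known mainly from testis, read 5.02 and 5.08, near the detection level, a difference of -0.06. Cd46, Cr1l and Cr2 are consecutive protein-coding genes on chromosome 1, and Cr2, a receptor of B cells for C3 fragments, was not detected (3.71 and 3.59).

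Of 55 further complement genes, 49 had a value and 16 were detected. At least 1.5-fold higher were 4 of the 16 (C1rb, C1rl, Fcna and C5ar2), beside the 10.7% of all detected genes, and 0 were 1.5-fold lower. The median difference of the 16 was 0.31, against 0.09 for all detected genes. The lectin pathway gene Fcna, encoding a ficolin, was below the detection level after IgG1 and at least 1.38-fold higher (5.30 against 4.52). C5ar2, a receptor for C5a, was at least 1.09-fold higher (4.96 against 4.06). Fcna, C5ar2 and Mbl2 were detected only through the anti-CD84 array. The place of Fcna and C5ar2 in the count, and the median of the 16, thus follow in part from the filter. Of the 13 genes above the level on both arrays, 2 (C1rb and C1rl) were 1.5-fold higher and 0 lower. The shares over all such genes were 9.57% and 3.89%. With differences centred, 3 of the 16 were 1.5-fold higher.

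C1q, the partner of C1r and C1s, and C4 and C2, the substrates of C1s, were within 1.5-fold or not detected. C1qa, a chain of C1q, was 1.29-fold lower (5.07 against 5.44), and C1qb and C1qc were not detected. C4b, a substrate of C1s, was 1.19-fold higher (6.44 against 6.19), and C2 and C4a were not detected. Masp1, the lectin pathway protease related to C1r and C1s, was 1.25-fold higher (8.42 against 8.09). Properdin (Cfp), which stabilises the alternative pathway enzyme, was 1.09-fold lower (5.21 against 5.34), and clusterin (Clu), a soluble inhibitor of the attack complex, was 1.41-fold higher (5.72 against 5.22). None of the 7 measured genes of the terminal pathway, from Hc (complement C5) to C9, was detected, their values running from 3.42 to 4.69. The other detected genes (Mbl2, Colec12, Csmd3, Susd4, Itgb2, C1qbp and Calr) all differed by less than 1.5-fold, from -0.29 for C1qbp to 0.53 for Mbl2.

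**Figure D3:**
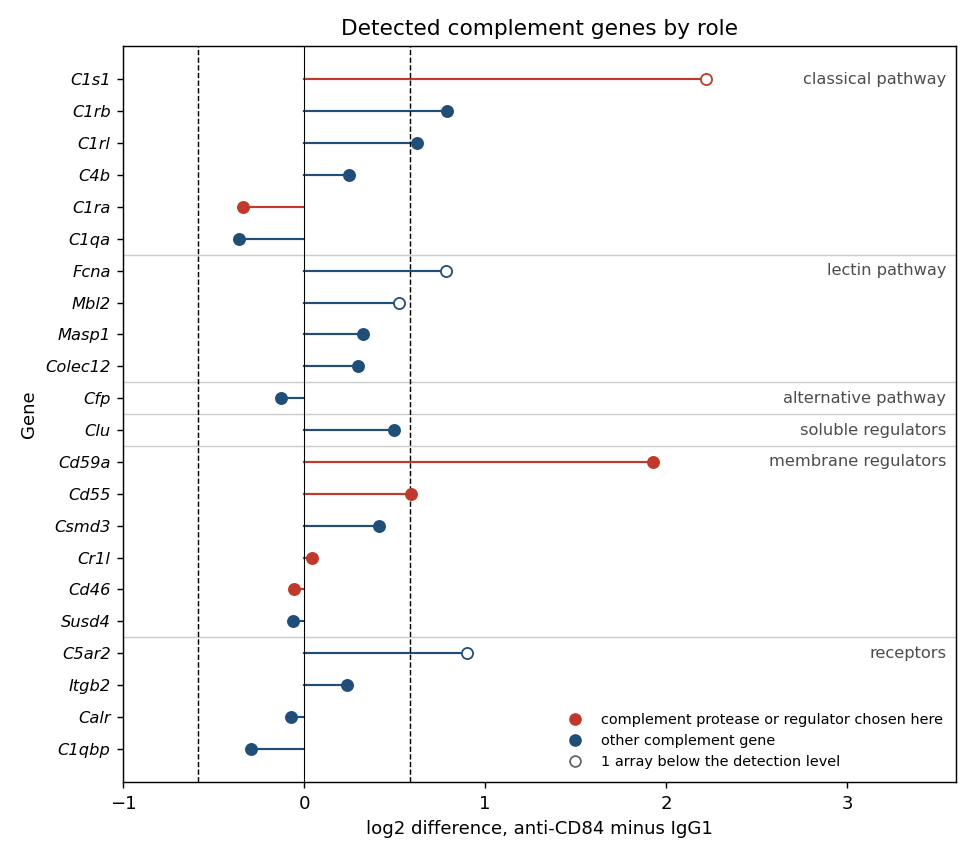
log2 difference, anti-CD84 minus IgG1 (horizontal axis), of the 22 detected complement genes in 6 groups by role, with the 6 chosen genes in red and the other 16 in blue. Open points have 1 array below the detection level and dashed lines mark 1.5-fold; 7 genes lie past the upper line and 0 past the lower one.

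Because Cd59a and Cd55 both carry GPI anchors, the genes that build and attach the anchor were listed as well. All 26 measured genes of this list were detected, 5 at least 1.5-fold higher and 2 lower as measured, beside 10.7% and 6.4% of all detected genes, and the median difference was 0.20 beside 0.09. Pigm, the mannosyltransferase that adds the first mannose, was 2.67-fold higher (7.60 against 6.18). Pigh, a subunit of the enzyme that starts the anchor, was 2.16-fold higher, whereas Piga, the catalytic subunit, differed by 0.05. Pigs, a subunit of the transamidase that attaches the anchor to proteins, was 1.86-fold higher (8.73 against 7.83), Pigo 1.60-fold higher (6.92 against 6.24) and Pigz, below the detection level after IgG1, at least 1.25-fold higher. The lower ones were Dpm3, a subunit of dolichol-phosphate mannose synthase, at least 1.64-fold, and Pgap3, which remodels the anchor on finished proteins, 1.53-fold. Pigz and Dpm3 were above the detection level only on the array where they were high. Their place in the counts thus follows in part from the filter. Pigm, Pigh, Pigo, Dpm3 and Pgap3 had mean levels between 5 and 7, where 13.3% of detected genes were 1.5-fold higher and 7.69% lower. Whether the differences of the anchor genes bear on Cd59a or Cd55 was not tested.

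The arrays had median log2 values of 4.87 (anti-CD84) and 4.88 (IgG1). Of 14 marrow stromal markers 10 were detected, including Col1a1 and Pdgfrb, while Lum, Lepr, Nt5e and Eng were not. Of the 10 detected, 3 were 1.5-fold higher after anti-CD84 and 0 lower, beside 10.7% and 6.4% of all detected genes. The 3 were Cxcl12 (by 1.10 on the log2 scale), Pdgfra (0.92) and Dcn (0.76). The median difference of the 10 was 0.42, against 0.32 for the 6 detected complement genes. The 10 include Thy1, detected only through the IgG1 array, and the 6 include C1s1, detected only through the anti-CD84 array. Both medians thus follow in part from the filter, and they show no shift of either list as a whole. Of 6 endothelial markers 3 were detected, and 2 of these were 1.5-fold lower as measured, beside 6.4% of all detected genes. They were Cdh5 (4.61 against 5.56) and Pecam1 (4.32 against 4.99), each below the detection level after anti-CD84. Both were detected only through the IgG1 array, so their place in the count follows in part from the filter. Counted from the level, Cdh5 was at least 1.65-fold and Pecam1 at least 1.11-fold lower. Emcn, above the level on both arrays, read 5.19 on each. The part of either marker list in the complement values was not tested. Of 12 macrophage and myeloid markers 5 were detected. Cd68 (5.95 after anti-CD84 and 6.21 after IgG1) and Spi1 (4.88 and 5.02) were above the level on both arrays. Csf1r, Cd14 and Tyrobp were above it on 1 array only, and Csf1r was 0.72 higher as measured (4.86 against 4.14). It was the 1 of the 5 past 1.5-fold higher, with 0 lower, beside 10.7% and 6.4% of all detected genes. Csf1r was detected only through the anti-CD84 array, so its place in this count follows in part from the filter. Counted from the level, Csf1r was at least 1.01-fold higher. The pan-leukocyte gene Ptprc was not detected (3.90 and 3.86). Of 8 measured lymphoid markers 2 were detected, Cd4 on both arrays (4.89 and 5.07) and Cd3d after IgG1 only. Of 6 hepatocyte markers, the liver being the main source of plasma complement, 2 were detected, Apoa1 (5.23 and 5.37) and Ttr (4.87 and 4.94). Albumin (Alb) was not detected (3.34 and 3.42). Cd84, the target of the antibody, was not detected either (4.15 and 3.82).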

How the data were processed

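The authors deposited a log2 value for each of 41345 probe sets on each of 2 one-colour arrays. Partek and RMA are the tools in the submitters' processing notes, which state neither version nor setting. The genome build is not given in the sources used here. That the values are log2 was inferred from their range. RMA compresses differences of dim probe sets, so their folds can be understated, and noise can enlarge them.

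GEO's platform annotation names 23521 probe sets by 1 symbol and 1814 by several, and leaves 16010 unnamed here. The difference is anti-CD84 minus IgG1. A gene was detected above a log2 level of 4.84 on at least 1 array. If the other array lay below it, that level took the place of its value and the fold is written "at least". Such a fold is not a statistical bound. Counts past 1.5-fold or 2-fold used the values as measured. Differences were set beside those of detected genes of like mean level, in 5 ranges. Every gene of the group, every detected complement gene and GPI anchor genes past 1.5-fold were named. The genes and lists were chosen with earlier results of these data known. RefSeq tables (GRCm38.p6) gave gene order and promoter sequences. Alternatives were centring, a loess curve (span 0.4), quantile normalization, floored values, the mean of probe sets and other detection filters. Counting was checked on simulated data. The software was limma 3.58.1 under R 4.3.3, and pandas 2.3.3, numpy 2.4.6 and matplotlib 3.10.9 under Python 3.11.15.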

Additional observations from a re-analysis of the deposited data

How the results depend on the processing

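Of 73 values recomputed under other settings, 65 stayed within the limit used (1.5 times for a count, and for a difference the standard deviation of differences among detected genes of like level), 8 moved further and 0 of the differences past 1.5-fold changed sign. Part of the 65 could not move. Flooring leaves genes above the level on both arrays unchanged, and the mean of probe sets leaves genes with 1 probe set unchanged. Centring shifts every difference by 0.09, less than any of the limits. The undetected Serping1 and Cfb are counted too. A fall from 3 to 2 chosen genes counts as no move, as with centring, where Cd55 lost its call. The 65 is therefore no measure of robustness. Of the moved values, 4 concern counts of further complement genes. Those at least 1.5-fold higher numbered 2 with values floored at the detection level, 1 with the level raised to 6.88 and 2 with both arrays required above the level. Those 1.5-fold lower numbered 4 with no filter on low values. With the stricter level 1 of the 9 chosen genes (Cd59a) was 1.5-fold higher, since 2 were then counted. The C1s1 difference was 0.83 with floored values, 1.29 as the mean of both probe sets and 0.36 for the dimmer probe set, which was added after the values were seen. With 1 array per treatment no replicate can be left out. No paired analysis was possible because each treatment has 1 array. The number of arrays limits the precision of every value.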
